A study of Papio anubis with 12 samples.

Results

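Sphingolipid synthesis and breakdown in the neonatal baboon cortex was followed through 38 listed genes that make, modify or degrade ceramide and the lipids built on it. Members were the genes on this list for which the array annotation held a probe set with that symbol and no other. This gave 34 genes with 88 probe sets, out of 19775 genes with such a probe set, and the brightest probe set by the mean of all arrays stood for each gene, with its other probe sets given beside it. SPTLC3 and SPHK2 had no such probe set listed, CERS1 shared its probe sets with GDF1 and GLB1 shared its own with TMPPE, so these 4 genes are not analysed here. Their absence leaves 9 genes of sphingoid base and ceramide synthesis, 5 of galactolipids and sulfatide, 6 of sphingomyelin, 10 of glucosylceramide and gangliosides, and 4 of ceramide breakdown and sphingosine 1-phosphate.

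RNA came from the precentral gyrus, the motor strip of the cerebral cortex, of 12 baboon neonates, with 1 Affymetrix human U133 Plus array per animal and 4 animals per formula. Each received 1 formula over 12 weeks, assigned at random after a spontaneous birth at a gestational age of about 182 days. Formula C was the control without docosahexaenoic acid (DHA) or arachidonic acid (ARA), the long-chain polyunsaturated fatty acids of breastmilk. Formula L held 0.33% DHA with 0.67% ARA, and formula L3 held 1.00% DHA with the same 0.67% ARA. At necropsy the C animals were 83 to 85 days old (2 males and 2 females), the L animals 84 to 87 days old (1 male and 3 females) and the L3 animals 83 to 84 days old (4 females), so L3 held no male. The probes were designed on human transcripts, and a signal can depend on how well they match the baboon transcript.

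Ceramide is made in the endoplasmic reticulum from serine and palmitoyl-CoA, with serine palmitoyltransferase as the first enzyme and the ceramide synthases adding the acyl chain. It is then turned into sphingomyelin, into galactosylceramide and sulfatide, which are main lipids of the myelin sheath, or into glucosylceramide and the gangliosides, which are abundant on neurons. Lysosomal hydrolases and their activator proteins take these lipids apart again, and ceramidases release sphingosine, which sphingosine kinase turns into the signaling lipid sphingosine 1-phosphate.

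Signals below are the deposited MAS5 intensities in arbitrary units, and differences are log2 differences after quantile normalization of log2(signal + 16), with the standard error (SE) from limma. Since 16 was added, the difference of a dim probe set is smaller than its signals alone would give. Of the 34 genes, 29 had a mean above the median of all 54613 probe sets, as did 11 of 11 neuronal, 10 of 11 myelin, 9 of 9 astrocyte and 7 of 9 microglial markers measured, and also 6 of 8 markers of liver and muscle. XIST and RPS4Y1 followed the labelled sex on all 12 arrays. In tissue RNA, a lower share of a cell type cannot be told apart from less of the transcript per cell. The arrays were split by rank into 6 with a higher signal of the spiked-in controls (C replicates 1 and 2, L replicate 1 and L3 replicates 1 to 3) and 6 with a lower one. On the log2 scale the higher arrays had 12.27 to 13.72 and the lower ones 10.77 to 12.01. The split was made after the data were seen, and values under it are given beside some of the results, not all. Exact permutation tests are two-sided and compare 4 arrays with 4, for which 0.0286 is the smallest possible p.

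The sphingolipid genes had no common direction in any of the 3 comparisons, and 0 of 34 members passed an adjusted p of 0.05 by limma. In L/C, 17 of the 34 genes were higher in L and 17 lower, with a median log2 difference of -0.03, the same as the median of -0.03 over all 19775 genes. In L3/C, 13 were higher and 21 lower with a median of -0.08, against -0.03 over all genes. In L3/L, 17 were higher and 17 lower with a median of -0.00, against 0.00 over all genes. The median size of a difference, without its sign, was 0.28 in L/C, 0.25 in L3/C and 0.28 in L3/L for the members, and 0.25, 0.29 and 0.32 over all genes.

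At an unadjusted limma p under 0.05, 0 of 34 members stood in L/C, where 2.11% of all genes did, and 0 of 34 in L3/C, where 3.88% of all genes did. In L3/L, 4 of 34 did, with 5.06% over all genes, and these were ACER3 and ASAH1, higher in L3 (2.58% of all genes), with DEGS1 and GALC, lower in L3 (2.48%). The smallest adjusted p of a member was 0.891, in L3/L, and the F test of any difference among the 3 formulas gave 0 members at an unadjusted p under 0.05, with a smallest p of 0.0833, where 3.24% of all genes passed. The SE of a member's difference ranged from 0.22 to 0.81 with a median of 0.41, which is above the median size of a difference in each comparison, so for most members a difference of that size was not detectable with 4 arrays per formula.

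**Figure D1:**
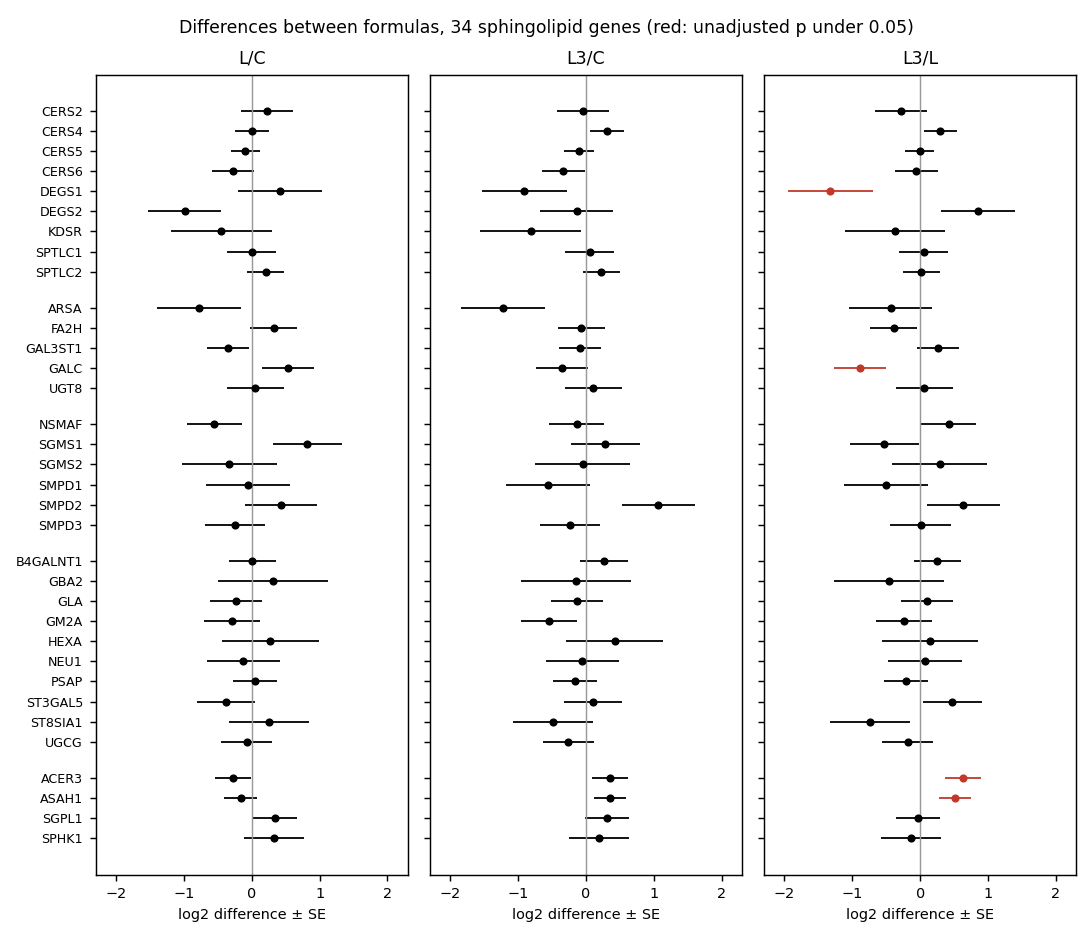
Log2 differences of the 34 sphingolipid genes (brightest probe set) in L/C, L3/C and L3/L, with bars of 1 SE from limma and genes set in 5 blocks by role, from ceramide synthesis at the top to ceramide breakdown at the bottom. Values lie on both sides of 0 in each block except the last block in L3/C, where all 4 are positive, and the 4 red points in L3/L (DEGS1, GALC, ACER3 and ASAH1) have an unadjusted p under 0.05.

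By brightest probe set, the ceramide-degrading and sphingosine 1-phosphate genes were the role group with all members on one side of 0 in L3/C. The 4 differences ran from 0.19 to 0.36 with a median of 0.33, while the medians of the other 4 groups lay between -0.14 and -0.08. In L/C the same group had 2 genes higher and 2 lower, and a median of 0.08. A median over 4 genes was given no test. Over all probe sets in L3/C, ASAH1 had 4 positive and 1 negative, ACER3 5 and 1, and SGPL1 1 and 2. The lowest values were -1.01 for ASAH1, -0.26 for ACER3 and -0.51 for SGPL1.

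ASAH1, the acid ceramidase of the lysosome, gave signals of 659, 591, 635 and 623 on the C arrays, 454, 596, 671 and 636 on the L arrays, and 742, 731, 649 and 1022 on the L3 arrays. The L3 arrays were the highest group, with replicate 4 farthest up, and L replicate 1 was the lowest of all 12 arrays. After normalization the 4 L3 values lay above all C and all L values, although as deposited L3 replicate 3 lay under the highest array of each. By formula the means were C 627 ± 28.2, L 589 ± 95.6 and L3 786 ± 163 (SD, n = 4), and the log2 difference was 0.52 (SE 0.24, limma p = 0.0461, adjusted p = 0.891) for L3/L and 0.35 (SE 0.24, limma p = 0.16, adjusted p = 0.999) for L3/C, with an exact permutation p of 0.0286 in both. Groups without overlap were found for 0 of 34 members in L/C, with 2.08% over all genes, for 1 of 34 in L3/C, with 2.16% over all genes, and for 2 of 34 in L3/L, with 2.53% over all genes.

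The other of these was ACER3, an alkaline ceramidase of the Golgi and endoplasmic reticulum, with signals of 844, 563, 613 and 551 on the C arrays, 476, 669, 516 and 504 on the L arrays, and 1005, 732, 680.0 and 695 on the L3 arrays. All L3 arrays were above all L arrays, with L3 replicate 1 the highest, while C replicate 1 stood among the L3 values. ACER3 averaged C 643 ± 137, L 541 ± 86.9 and L3 778 ± 153, a log2 difference of 0.64 (SE 0.26, limma p = 0.0284, adjusted p = 0.891) for L3/L with an exact permutation p of 0.0286. Over 27 alternative settings, ACER3 kept an unadjusted p under 0.05 in 14 and ASAH1 in 9, with differences of 0.30 to 0.76 for ACER3 and 0.20 to 0.73 for ASAH1. Centring of the arrays on their medians gave 0.30 and 0.20, and there the median of all genes itself moved to -0.18 for L3/L.

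Only some of the other probe sets of both genes shared this direction. Of the 5 probe sets of ASAH1, 3 were positive and 2 negative in L3/L, and of the 6 of ACER3, 2 were positive and 4 negative.

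The second brightest ASAH1 probe set (identifier ending in _a_at) had signals of 227, 367, 489.6 and 421 on the C arrays, 606, 551, 745 and 581 on the L arrays, and 421, 298, 363 and 554 on the L3 arrays. Here the L arrays were the high group, above all C arrays, and only L3 replicate 4 came near them. Its log2 difference was 0.75 (SE 0.32, limma p = 0.0317, adjusted p = 1.00) for L/C and -0.68 (SE 0.32, limma p = 0.0491, adjusted p = 0.891) for L3/L, each with an exact permutation p of 0.0286, and the normalized values did not overlap in either. In L/C it was the only member probe set of 88 without overlap, where 2.1% of all probe sets were, and in L3/C the brightest of ASAH1 was the only one, where 2.21% were. Over 27 alternative settings the second brightest of ASAH1 kept an unadjusted p under 0.05 in 18 for L/C and in 7 for L3/L. Its differences ran from 0.44 to 0.98 for L/C and from -0.84 to -0.18 for L3/L. With the higher or lower spike-in signal as a block the L3/L difference was -0.44 (SE 0.31). The 2 probe sets of ASAH1 with the highest signals thus lay on opposite sides of 0 in L3/L, and which of them follows the baboon transcript was not tested.

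The remaining genes of the group were SPHK1, a sphingosine kinase, and SGPL1, the lyase that ends sphingosine 1-phosphate. Over all arrays SPHK1 ran from 99.9 to 493 and SGPL1 from 218 to 434 in signal, with the lowest values in L3 replicate 1 and C replicate 2. At the brightest probe set both were positive in L/C and L3/C, with differences of 0.19 to 0.34 that were at most 1.08 times their SE. The 3 probe sets of SGPL1 ran from -0.43 to 0.48 in L/C and from -0.51 to 0.31 in L3/C.

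**Figure D2:**
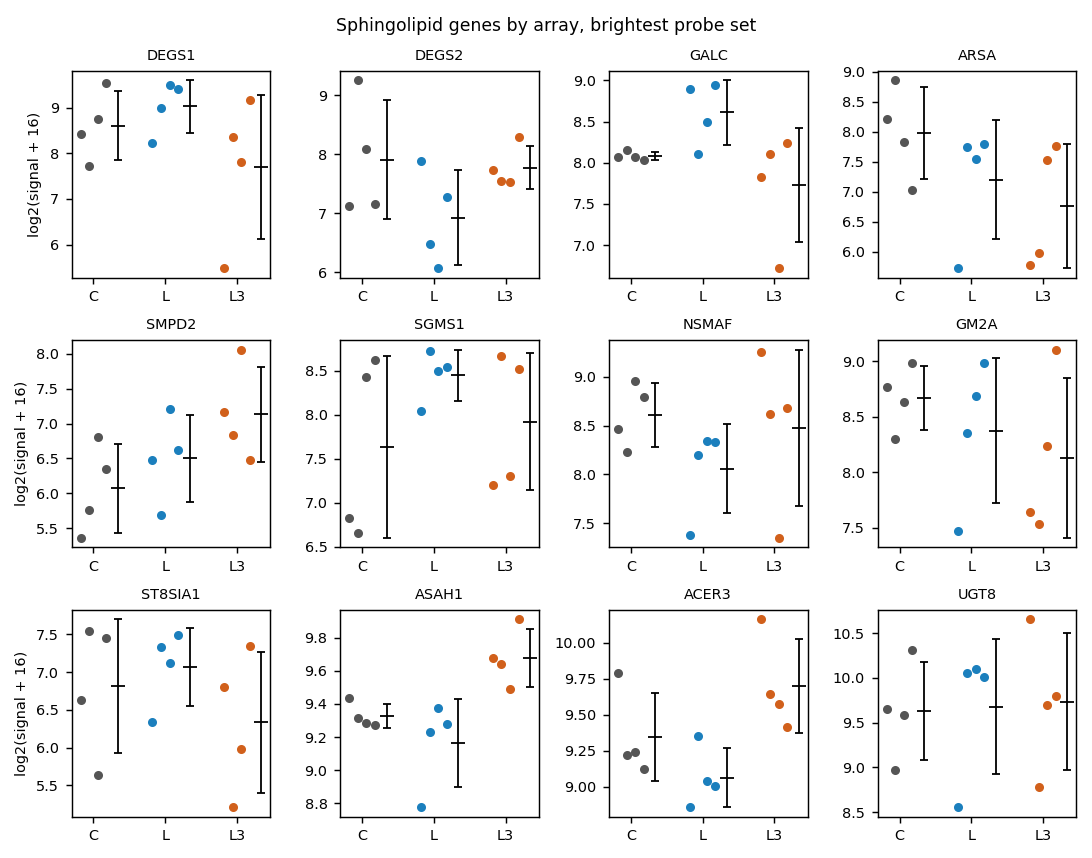
Values of 12 sphingolipid genes on each array, as log2(signal + 16) after quantile normalization, with 1 point per animal for formulas C, L and L3 and the mean ± SD of each group beside the points. For ASAH1 the 4 L3 points lie above all others and for ACER3 they lie above all L points, while in the other 10 panels the groups overlap in every comparison.

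Among the genes of sphingoid base and ceramide synthesis, the largest differences were those of the dihydroceramide desaturases DEGS1 in L3/L and DEGS2 in L/C, and both moved by over 1.5 times when 1 array was left out. In L/C 5 of 9 genes were higher and 4 lower, in L3/C 3 and 6, and in L3/L 4 and 5, with medians of 0.00, -0.10 and -0.01.

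DEGS1 encodes the dihydroceramide desaturase that puts the double bond into ceramide in most tissues. Its signals were 335, 229, 384 and 768 on the C arrays, 329, 477, 732 and 703 on the L arrays, and 34.2, 334, 246 and 572 on the L3 arrays. L3 replicate 1 was far below every other array, and the other L3 arrays lay within the range of C, so all groups overlapped. DEGS1 averaged C 429 ± 235, L 560.0 ± 192 and L3 296 ± 222, which gave a log2 difference of -1.32 (SE 0.62, limma p = 0.0493, adjusted p = 0.891) for L3/L with an exact permutation p of 0.143. Without L3 replicate 1 the difference was -0.59 (SE 0.47, adjusted p = 0.936), with the higher or lower spike-in signal as a block it was -0.66 (SE 0.54, adjusted p = 0.915), and neither passed without adjustment. DEGS1 was 1.55 higher on the log2 scale on the arrays with lower spike-in signal than on the others, which hold 3 of the 4 L3 arrays.

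DEGS2, the desaturase and hydroxylase of phytoceramide synthesis, gave 131, 573, 211 and 113 on the C arrays, 265, 60.2, 50.0 and 115 on the L arrays, and 221, 196, 203 and 283 on the L3 arrays. C replicate 2 was the highest and L replicates 2 and 3 were the lowest, with L replicate 1 inside the range of C. The log2 difference was -0.98 (SE 0.54, limma p = 0.0861, adjusted p = 1.00) for L/C, with an exact permutation p of 0.2, and it was -0.53 without C replicate 2.

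SPTLC2, the long-chain catalytic subunit of serine palmitoyltransferase and one of the genes the study names, had brightest probe set signals of 480.1, 479, 307 and 408 on the C arrays, 590.4, 366, 499 and 507 on the L arrays, and 618, 500.4, 476 and 405 on the L3 arrays. All 3 groups overlapped, with the lowest value in C replicate 3 and the highest in L3 replicate 1. Its differences were 0.21 (SE 0.27, limma p = 0.453, exact permutation p = 0.229) for L/C and 0.23 (SE 0.27, limma p = 0.417, exact permutation p = 0.286) for L3/C.

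At the probe set that the study lists for SPTLC2 (one of its sets ending in _s_at), which was much dimmer, the signals were 14.8, 44.0, 36.4 and 71.6 on the C arrays, 112, 45.0, 86.4 and 143 on the L arrays, and 169, 46.5, 42.8 and 55.9 on the L3 arrays. C replicate 1 was the lowest, and L replicates 1, 3 and 4 with L3 replicate 1 lay above all C arrays. Here the log2 difference was 1.02 (SE 0.53, limma p = 0.0691, adjusted p = 1.00) for L/C and 0.56 (SE 0.53, limma p = 0.298, adjusted p = 0.999) for L3/C, with exact permutation p of 0.0571 and 0.371. Of the 5 SPTLC2 probe sets 4 were positive and 1 negative in L/C, and 2 positive and 3 negative in L3/C.

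CERS5, a ceramide synthase that prefers palmitoyl-CoA, had the smallest SE of the 34 genes, 0.22, and signals of 1148, 896, 1098 and 956 on the C arrays, 902, 981, 936 and 982 on the L arrays, and 892, 925, 822 and 853 on the L3 arrays. No array was below 822, and the 3 groups overlapped after normalization, with differences of -0.09 (SE 0.22) for L/C and -0.10 (SE 0.22) for L3/C. The limits of the 95% interval were -0.55 to 0.37 in L/C and -0.56 to 0.36 in L3/C. The probe set that the study lists for this gene, under its older name LASS5, has no symbol in the annotation used here and is not analysed here.

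The other 5 genes were SPTLC1, the partner subunit of SPTLC2, KDSR, the reductase of the next step, and the ceramide synthases CERS2, CERS4 and CERS6. SPTLC1 signals ran from 237 to 589, those of KDSR from 43.8 to 717, CERS2 from 370.2 to 1164, CERS4 from 7.30 to 44.5 and CERS6 from 386 to 1189. Their differences ran from -0.45 to 0.23 for L/C, from -0.81 to 0.31 for L3/C and from -0.37 to 0.30 for L3/L, at most 1.23 times their SE. The dimmest of the 3 probe sets of SPTLC1 had signals of 5.8, 9.1, 11.8 and 3.3 on the C arrays, 142, 6.6, 49.4 and 4.6 on the L arrays, and 122, 35.7, 69.4 and 4 on the L3 arrays. C arrays were all low, while L and L3 each held high and low arrays and overlapped with C. It had a log2 difference of 1.27 (SE 0.56, limma p = 0.0376, adjusted p = 0.999, exact permutation p = 0.0857) for L3/C. Over 26 alternative settings this ran from -0.25 to 2.15. The value was 0.82 (SE 0.47) with the spike-in covariate, and -0.25 among arrays with lower spike-in signal, where L3 has 1 array. The other SPTLC1 probe sets had L3/C differences of 0.05 (SE 0.36) at the brightest and 0.05 (SE 0.77) at the next. The dimmest was the only member probe set of 88 with an unadjusted p under 0.05 in L3/C, where 4.26% of all probe sets passed. In L/C the second brightest of ASAH1 was the only one, where 2.42% passed.

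The galactolipid and sulfatide genes act in myelin, with UGT8, GAL3ST1 and FA2H on the side of synthesis and GALC and ARSA on that of breakdown. For L3/C 4 of these 5 genes were lower and 1 higher, with a median of -0.08, and in L3/L 3 were lower and 2 higher, with a median of -0.39.

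GALC, the lysosomal galactosylceramidase that is missing in Krabbe disease, had signals of 262, 302, 206 and 226 on the C arrays, 483, 221, 338 and 480.2 on the L arrays, and 235, 287, 108 and 272 on the L3 arrays. L replicates 1, 3 and 4 were above all C and all L3 arrays, L3 replicate 3 was the lowest, and L replicate 2 lay within the range of both other groups. With means of C 249 ± 42.3, L 381 ± 126 and L3 225 ± 81.1, the log2 difference was -0.89 (SE 0.38, limma p = 0.0335, adjusted p = 0.891) for L3/L and 0.53 (SE 0.38, limma p = 0.182, adjusted p = 1.00) for L/C, with exact permutation p of 0.0857 and 0.0571. In 17 of 27 alternative settings GALC kept an unadjusted p under 0.05 in L3/L, and without L3 replicate 3 the difference was -0.56 (SE 0.34, adjusted p = 0.979). Among the 6 arrays with lower spike-in signal it was -0.32 (SE 0.45, adjusted p = 1.00), where L3 has 1 array, whose spread is taken to be that of the other groups. Its second probe set lay on the other side of 0 in L3/L, where the pair ran from -0.89 to 0.12.

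ARSA, the arylsulfatase that splits sulfatide, gave 292, 460.0, 168 and 102 on the C arrays, 46.6, 165, 159 and 178 on the L arrays, and 46.0, 47.8, 204 and 187 on the L3 arrays. The low arrays were L replicate 1 and L3 replicates 1 and 2, between 46.0 and 47.8, and C held the 2 highest. Its log2 difference was -1.22 (SE 0.62, limma p = 0.0661, adjusted p = 0.999) for L3/C, with an exact permutation p of 0.143. Among the arrays with lower spike-in signal, where L3 has 1 array and C has 2, the difference was 0.34, the opposite direction.

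UGT8, which makes galactosylceramide, had signals of 766, 488, 838 and 1412 on the C arrays, 401, 1249, 1144 and 1168 on the L arrays, and 1386, 433, 729 and 938 on the L3 arrays. The lowest arrays were 1 of each formula (L replicate 1, L3 replicate 2 and C replicate 2), and C replicate 4 and L3 replicate 1 were the highest. The L3/C difference was 0.11 (SE 0.42, limma p = 0.802, exact permutation p = 0.771), with a 95% interval of -0.78 to 1.00.

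FA2H, the hydroxylase of the fatty acids in myelin galactolipids, gave 210.2, 247, 242 and 321 on the C arrays, 288, 292, 413 and 295 on the L arrays, and 262, 208, 386 and 203 on the L3 arrays. L arrays 1, 2 and 4 were close together, inside the range of both other groups. The difference was -0.39 (SE 0.34, limma p = 0.275, exact permutation p = 0.2) for L3/L. GAL3ST1, the sulfotransferase that makes sulfatide, was dim on all arrays, with 16, 56.9, 25 and 28.7 on the C arrays, 34.2, 16.1, 12.3 and 16.7 on the L arrays, and 25.3, 20.8, 38.5 and 33.2 on the L3 arrays. C replicate 2 was the highest and L replicate 3 the lowest, with an L/C difference of -0.35 (SE 0.31, limma p = 0.276, exact permutation p = 0.229).

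Sphingomyelin genes were split in direction, with 2 of 6 higher and 4 lower for L/C as for L3/C, and 4 higher and 2 lower in L3/L. The 2 synthases SGMS1 and SGMS2 make sphingomyelin from ceramide, SMPD1, SMPD2 and SMPD3 are sphingomyelinases, and NSMAF is an adaptor that links the tumor necrosis factor receptor to neutral sphingomyelinase.

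SMPD2, a neutral sphingomyelinase, had low signals of 27.3, 48.1, 74.7 and 59.6 on the C arrays, 87.4, 29.2, 125 and 69.6 on the L arrays, and 145, 109, 289.8 and 68.3 on the L3 arrays. L3 replicates 1 to 3 were above all C arrays, and L3 replicate 4 was not. By formula the means were C 52.4 ± 20.0, L 77.7 ± 39.7 and L3 153 ± 96.4, with a log2 difference of 1.07 (SE 0.53, limma p = 0.0627, adjusted p = 0.999) for L3/C and an exact permutation p of 0.0571. L3 replicates 1 to 3 are also the L3 arrays with higher spike-in signal. Among the arrays with lower signal, where L3 has 1 array and C has 2, the difference was -0.10. On the arrays with higher signal the normalized log2 values were 5.36 and 5.76 in C and 7.17, 6.83 and 8.06 in L3. Over all formulas SMPD2 differed by -0.09 between the arrays with lower and with higher spike-in signal. Its probe set has a mean under the median of all probe sets.

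SGMS1 gave 104, 101, 287 and 364 on the C arrays, 293, 375, 338 and 336 on the L arrays, and 149, 405, 174 and 339 on the L3 arrays. It was low in C replicates 1 and 2 and in L3 replicates 1 and 3, all with higher spike-in signal, and between 287 and 405 on the other arrays. The largest difference was 0.82 (SE 0.51, limma p = 0.127, adjusted p = 1.00) for L/C, with an exact permutation p of 0.257.

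The brightest probe set of NSMAF, which the study names, had signals of 344, 317, 464 and 418 on the C arrays, 183, 237, 299 and 281 on the L arrays, and 579, 393, 180.1 and 386 on the L3 arrays. As deposited all L arrays were below all C arrays, whereas L3 held both the lowest and the highest of the 12, and after normalization L and C overlapped. The log2 difference was -0.55 (SE 0.41, limma p = 0.194, adjusted p = 1.00) for L/C, with an exact permutation p of 0.0857, and -0.13 (SE 0.41, limma p = 0.745, adjusted p = 0.999) for L3/C. Without L replicate 1 the L/C difference was -0.33.

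The NSMAF probe set that the study lists had signals of 231, 167, 86.2 and 79.0 on the C arrays, 189, 95.0, 187 and 103 on the L arrays, and 278, 253, 320.4 and 198 on the L3 arrays. All L3 arrays were above all L arrays, and C replicate 1 lay among the L3 values. It averaged C 141 ± 72.3, L 143 ± 51.4 and L3 262 ± 51.2, and the log2 difference was 0.12 (SE 0.40, limma p = 0.774, exact permutation p = 0.714) for L/C, 0.80 (SE 0.40, limma p = 0.0637, adjusted p = 0.999) for L3/C and 0.68 (SE 0.40, limma p = 0.109, adjusted p = 0.893) for L3/L, the last with an exact permutation p of 0.0286. Over the 5 NSMAF probe sets 2 were positive and 3 negative for L/C as for L3/C, and 4 were positive and 1 negative in L3/L.

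Of the other 3 genes, SGMS2 ran from 33.6 to 501 in signal, SMPD1, the acid sphingomyelinase, from 52.6 to 659.8, and SMPD3, a neutral sphingomyelinase abundant in brain, from 135 to 637. None of their differences was over 0.90 times its SE, and they ran from -0.56 to 0.29 in the 3 comparisons.

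The group of glucosylceramide and gangliosides holds the synthases UGCG, ST3GAL5, ST8SIA1 and B4GALNT1 and the hydrolases GBA2, HEXA, NEU1 and GLA. It also holds PSAP and GM2A, whose protein products present lipids to the lysosomal enzymes. In L/C 5 of 10 were higher and 5 lower, in L3/C 3 and 7, and in L3/L 5 and 5, with medians of -0.03, -0.13 and -0.06.

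GM2A, the activator that HEXA needs to degrade the ganglioside GM2, had signals of 424, 332, 343 and 489 on the C arrays, 197, 271, 393 and 496 on the L arrays, and 206, 195, 322 and 544 on the L3 arrays. L replicate 1 and L3 replicates 1 and 2 were the lowest and L3 replicate 4 the highest. Its log2 difference of -0.54 (SE 0.41, limma p = 0.21, adjusted p = 0.999) for L3/C had an exact permutation p of 0.229. Among the arrays with lower spike-in signal, where L3 has 1 array and C has 2, the difference was 0.36. Of its 7 probe sets 2 were negative and 5 positive in L3/C.

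ST8SIA1, the sialyltransferase that starts the b-series gangliosides, gave dim signals of 90.1, 202, 26.1 and 142 on the C arrays, 77.4, 119, 117 and 139 on the L arrays, and 109, 22.1, 50.8 and 133.4 on the L3 arrays. C replicate 3 and L3 replicate 2 were the lowest, at 26.1 and 22.1, and no group stood apart. The difference was -0.74 (SE 0.59, limma p = 0.228, exact permutation p = 0.229) for L3/L.

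GBA2, the non-lysosomal glucosylceramidase, had the member value with the smallest unadjusted p at its second probe set, with signals of 192, 149, 286 and 471 on the C arrays, 524, 333, 318 and 299.6 on the L arrays, and 70.6, 207, 177 and 167 on the L3 arrays. All L arrays were above all L3 arrays, L3 replicate 1 was the lowest of the 12, and C lay between and overlapped with both. By formula the means were C 275 ± 143, L 369 ± 105 and L3 155 ± 59.0, and the log2 difference was -1.41 (SE 0.45, limma p = 0.00635, adjusted p = 0.891) for L3/L, with an exact permutation p of 0.0286. It kept an unadjusted p under 0.05 in 26 of 27 alternative settings, with differences of -1.80 to -0.94. The brightest GBA2 probe set was lower in L3 than in L too, with signals of 41.8 to 661 over the arrays and a difference that was less than its SE. In L3/L 6 of the 88 member probe sets had an unadjusted p under 0.05, where 5.4% of all probe sets passed, and 5 did not overlap, where 2.66% of all probe sets did not.

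The other 7 genes of this group had differences of -0.37 to 0.28 in L/C, -0.26 to 0.42 in L3/C and -0.21 to 0.48 in L3/L, at most 1.10 times their SE. Over the arrays ST3GAL5, which makes the ganglioside GM3, ran from 170.4 to 761 in signal, UGCG, the glucosylceramide synthase, from 253 to 744 and B4GALNT1, which makes GM2 and GD2, from 152 to 500.4. HEXA, a subunit of beta-hexosaminidase, ran from 46.0 to 747, the lysosomal sialidase NEU1 from 92.0 to 488, the alpha-galactosidase GLA from 187 to 666 and PSAP from 1138 to 8777, and each of these 4 had its lowest value on L replicate 1.

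**Figure D3:**
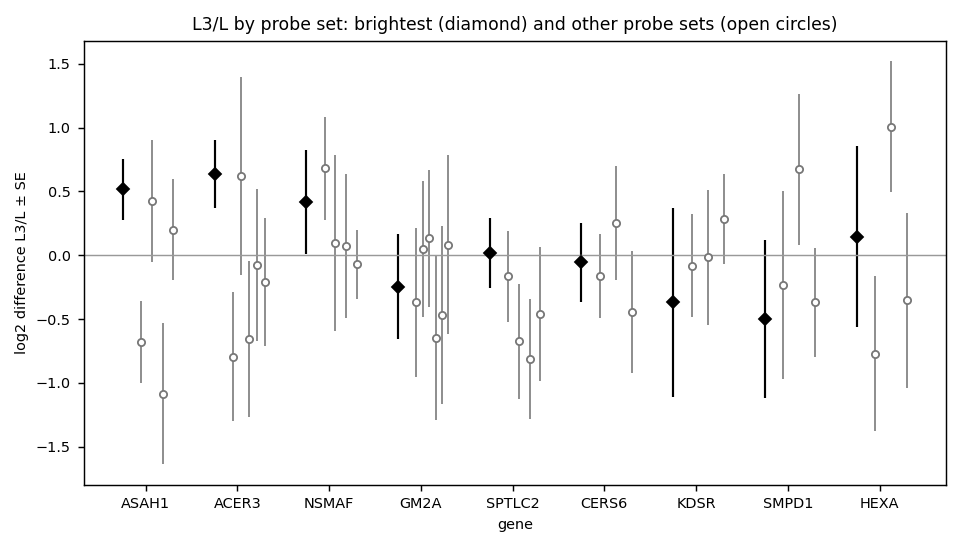
Log2 difference in L3/L (± 1 SE, limma) at every probe set of 9 sphingolipid genes with several probe sets, with the brightest as a filled diamond and the others as open circles. Points of one gene lie on both sides of 0, as for ASAH1, where the brightest is at 0.52 and the next at -0.68.

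Probe sets of one gene often pointed in different directions. Of the 34 genes 24 had more than 1 probe set, with 54 beside the brightest. These had the sign of the brightest in 21 of 54 cases in L/C (38.9%), in 29 of 54 in L3/C (53.7%) and in 26 of 54 in L3/L (48.1%). Over all genes the shares were 51.0%, 52.2% and 50.8%, and the difference between members and all genes was not tested.

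The level of the sphingolipid genes varied more between single arrays than between formulas. Expressed as the mean deviation of the 34 genes from their own means, C had 0.04 ± 0.19, L had 0.01 ± 0.42 and L3 had -0.04 ± 0.21 (SD, n = 4). L replicate 1 was at -0.62, while the other L arrays were at 0.19 to 0.25. After normalization it was the lowest of all 12 arrays for 13 of the 34 genes and for 16.5% of all genes. In the deposited signals it was the lowest for 10 of the 34, among them UGT8, ST3GAL5, HEXA, NEU1, GLA, PSAP and ASAH1. Without it the median L/C difference was 0.23 in place of -0.03, and the median L3/L difference was -0.31 in place of -0.00.

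The 6 arrays with lower spike-in signal all had a positive mean deviation, 0.18 to 0.25, and the 6 with higher signal all had a negative one, -0.62 to -0.05. On the lower arrays 25 of the 34 genes (73.5%) were higher, with a median log2 difference of 0.38, against 49.7% and -0.00 for all genes. GBA2 was 1.73 and HEXA 1.59 higher there, while SGMS2, at -1.07, and DEGS2, at -0.62, were lower. At the other probe sets of these genes the lower arrays differed by 0.89 for GBA2, by -0.03, -0.29 and -0.57 for HEXA, and by 0.62 and -0.08 for SGMS2. These arrays also had a lower median signal, of 108.8 to 133.2 against 149.9 to 174, and a lower 3'/5' ratio of ACTB, of -0.15 to 1.86 against 1.86 to 5.98 on the log2 scale, a measure of RNA degradation. The mean log2 deviation of the 9 measured microglial markers split on the same line and further than the members, with 0.21 to 0.84 on the lower arrays and -1.09 to -0.24 on the higher ones, and its part in the members' values was not tested. The lower arrays hold 2 C, 3 L and 1 L3 arrays, and the others 2 C, 1 L and 3 L3 arrays. Within the higher arrays the median L/C difference was -0.37 and the median L3/L difference was 0.33, both resting on L replicate 1 as the one L array.

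**Figure D4:**
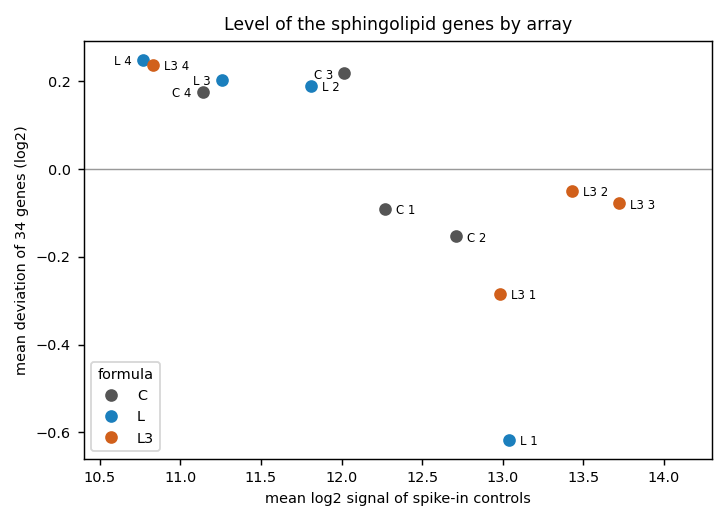
Mean deviation of the 34 sphingolipid genes from their own means (log2, vertical axis) against the mean log2 signal of the spike-in controls (horizontal axis), with 1 point per array, coloured by formula and labelled with the replicate. All 6 arrays on the left are above 0, all 6 on the right are below 0, and L replicate 1 is the lowest at -0.62.

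Since galactosylceramide and sulfatide belong to myelin, each member was also set against the mean log2 level of 11 myelin markers (among them MBP and MOG, none of them a member), with the 3 formula means in the model. The myelin mean did not separate the formulas, with -0.57 to 0.39 in C, -0.39 to 0.35 in L and -0.24 to 0.34 in L3. UGT8 had a slope of 1.45 (SE 0.43, limma adjusted p = 0.68) in log2 units per unit of the marker mean. Its second probe set had 1.99 (SE 0.81, limma adjusted p = 0.68). Leaving out single arrays gave 1.17 to 1.62 for the brightest, and a block for higher or lower spike-in signal gave 1.21.

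Among the other genes of the myelin galactolipids, FA2H had a slope of 0.26 (SE 0.46, limma adjusted p = 0.918), GAL3ST1 -0.55 (SE 0.39, limma adjusted p = 0.769), GALC -0.13 (SE 0.51, limma adjusted p = 0.968) and ARSA -0.30 (SE 0.83, limma adjusted p = 0.954). At their second probe sets FA2H had 0.64, GALC 0.37 and ARSA 0.50. Whether these slopes differ from that of UGT8 was not tested.

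Outside this group, HEXA had 2.13 (SE 0.78, limma adjusted p = 0.68), ST3GAL5 1.25 (SE 0.48, limma adjusted p = 0.68) and UGCG 1.02 (SE 0.43, limma adjusted p = 0.684), while DEGS2 had -1.67 (SE 0.59, limma adjusted p = 0.68) and SGMS2 -1.80 (SE 0.82, limma adjusted p = 0.69). These are slopes of the brightest probe sets. The other probe sets of HEXA had -0.27, -0.73 and 0.05, those of SGMS2 -0.62 and -0.23, and those of UGCG 0.95 and 0.82. In all 4 members had a positive and 2 a negative slope at an unadjusted p under 0.05, where 4.56% and 2.68% of all genes did, and 0 passed an adjusted p of 0.05, with a smallest of 0.68. Over the 34 genes 23 slopes were positive with a median of 0.34, against 53.4% and a median of 0.05 over all genes. With the spike-in signal as a covariate 2 members had an unadjusted p under 0.05, where 3.12% of all genes did, and HEXA had a slope of 1.28.

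**Figure D5:**
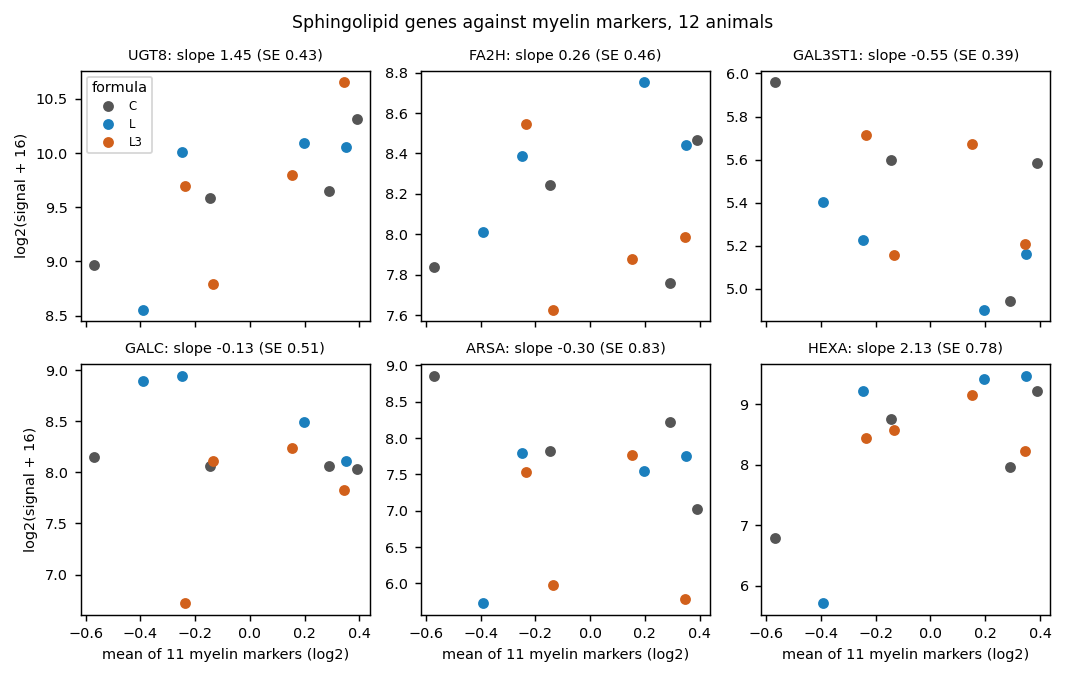
Level of 6 sphingolipid genes (log2(signal + 16), normalized) against the mean log2 level of 11 myelin markers on the same array, centred on 0, with 1 point per animal, coloured by formula. UGT8 climbs from 8.56 to 10.7 along the axis and HEXA is lowest at low marker levels, and the slopes of FA2H, GAL3ST1, GALC and ARSA lie between -0.55 and 0.26.

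A further list of 41 genes of the same pathways that are no members, such as the ORMDL regulators, other hydrolases and transfer proteins, had 37 measured genes, 31 of them above the median of all probe sets. Among them 0 passed at an adjusted p under 0.05 by limma, and at an unadjusted p under 0.05 there were 0 in L/C (2.11% of all genes), 1 lower in L3/C (3.88% of all genes in either direction) and 2 lower in L3/L (5.06%). SGPP1, the phosphatase that returns sphingosine 1-phosphate to sphingosine, had signals of 381, 714, 508 and 547 on the C arrays, 568, 320.3, 641 and 544 on the L arrays, and 176, 367, 349 and 394 on the L3 arrays. No L3 array was above 394, L3 replicate 1 was the lowest, and C replicate 1 and L replicate 2 lay within the range of L3. The log2 difference was -0.86 (SE 0.35, limma p = 0.0242, adjusted p = 0.999) for L3/C and -0.79 (SE 0.35, limma p = 0.0353, adjusted p = 0.891) for L3/L, with an exact permutation p of 0.0571 in each.

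SMPDL3B, a sphingomyelinase-like phosphodiesterase, gave 408, 305, 627 and 683 on the C arrays, 1334, 627, 745 and 644 on the L arrays, and 436, 58.4, 131 and 772 on the L3 arrays. L3 replicates 2 and 3 were far below all other arrays, and L3 replicate 4 lay among the L arrays. Replicates 2 and 3 of L3 also had the highest spike-in signals of all arrays, 13.4 and 13.7 on the log2 scale. Replicate 4, at 10.8, is the only L3 array with lower spike-in signal, and the part of this in the SMPDL3B values was not tested. SMPDL3B had a log2 difference of -1.89 (SE 0.61, limma p = 0.00687, adjusted p = 0.891) for L3/L, with an exact permutation p of 0.114.

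The sialidase NEU3, of the plasma membrane, did not overlap between L and the other formulas in L/C and L3/L, with 495, 426, 385 and 384 on the C arrays, 248, 249, 346 and 299 on the L arrays, and 428, 437, 509 and 355 on the L3 arrays. All L arrays were below all C and all L3 arrays, with a log2 difference of -0.55 (SE 0.29, limma p = 0.0724, adjusted p = 1.00) for L/C and 0.55 (SE 0.29, limma p = 0.0723, adjusted p = 0.891) for L3/L, and an exact permutation p of 0.0286 in each. NEU2, a second sialidase, was dim, with a log2 difference of 0.88 (SE 0.45, limma p = 0.0668, exact permutation p = 0.0286) for L/C and no overlap after normalization. Of the 37 genes 2 did not overlap in L/C, where 2.08% of all genes did not, and 1 did not in L3/L, where 2.53% did not. NEU3 and NEU2 are named because of their values.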

How the data were processed

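The authors deposited 1 table of MAS5 signals from GCOS, an intensity per probe set and array on a linear scale, with each array scaled to a trimmed mean (2% at either end) of 250.01 to 250.02. The methods of the study describe RMA, which these deposited intensities are not. After removal of 62 control probe sets, 54613 remained, whose log2(signal + 16) values were quantile normalized between arrays. A linear model with 1 mean per formula was fitted to all 12 arrays with limma, with 9 residual degrees of freedom and a trend of the variance, and Benjamini-Hochberg adjustment ran over all probe sets, with a threshold of 0.05. Precision rests on 4 arrays, each of another animal, per group.

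The platform annotation gives 1 symbol to 41091 probe sets, several to 1801 and no symbol to 11721. Values of each array are given for the 2 members with the smallest p in each role group, members without overlap, the galactolipid genes, and NSMAF, SPTLC2 and CERS5, which the study names. Other members are given by ranges, and genes outside the list where an unadjusted p was under 0.05. Members and lists were chosen with earlier results of these data known. Alternatives were no further normalization, centring on the median, a pseudocount of 1, only brighter probe sets, no trend, covariates for sex, age, spike-in signal and the 3'/5' ratio of ACTB, females only, a replicate block, the 8 arrays compared, all probe sets, the methods' multiclass test, and leaving out each array. The settings that use the 6 arrays with higher or with lower spike-in signal were chosen after seeing the data. Scripts were tested on simulated data. Limma 3.58.1 ran in R 4.3.3, and tables were made with pandas 2.3.3 and numpy 2.4.6 in Python 3.11.15.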

Additional observations from a re-analysis of the deposited data

Results flagged for a closer look

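In groups of 4 arrays, a value was picked out when its gap to the next array, as a share of the whole range of the group, was above the 95% critical value of Dixon's test. Of 84 groups looked at, over the normalized values of the named probe sets and the mean of the members, 7 were picked out, and chance alone picks out about 1 in 20. All 7 were L replicate 1. It was the lowest L array for the mean of the members, with a gap of 0.931 of the range, for UGT8 (0.944), for ARSA (0.877), for the brightest probe set of NSMAF (0.851) and for another NSMAF probe set (0.873). After normalization it was the highest L array for CERS5 (0.877), where as deposited it was the lowest of the 4, and for a dimmer SPTLC2 probe set (0.911). The same array had a spike-in signal of 13.0 on the log2 scale, against 10.8 to 11.8 on the other L arrays, a median signal of 172 against 115 to 133.2, and a 3'/5' ratio of ACTB of 3.42 on the log2 scale against -0.15 to 1.33. The mean log2 deviation of astrocyte markers was -0.59 on it against 0.02 to 0.09 on the other L arrays, that of endothelial markers -0.53 against 0.17 to 0.31, and that of liver and muscle markers 0.80 against -0.40 to -0.09. The part of these in its values was not tested.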

How the results depend on the processing

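Under every alternative 0 members passed an adjusted p of 0.05. Leaving out single arrays gave median differences of -0.17 to 0.23 in L/C, -0.15 to 0.05 in L3/C and -0.31 to 0.026 in L3/L, with 0 to 2, 0 to 3 and 0 to 4 members at an unadjusted p under 0.05, and 2 to 7 for the slope on myelin markers (1.49% to 2.88%, 3.16% to 7.89%, 3.74% to 9.80% and 3.79% to 9.56% of all genes). Among arrays with higher spike-in signal the L/C and L3/L medians were -0.37 and 0.33. In L/C the count of 0 became 1 with a sex covariate, in females, with lower spike-in signal and over all probe sets (1.98% to 3.40% of all genes or probe sets), and 4 with higher spike-in signal, where 8.01% of all genes passed. In L3/C the count of 0 became 1 without normalization, without the trend, with an age covariate, with lower spike-in signal and over all probe sets (3.40% to 4.26%), and 2 with higher spike-in signal (3.70%). In L3/L the count of 4 became 1 without normalization, without the trend, with an age or spike-in covariate and with the 8 arrays compared (3.59% to 4.88% of all genes), 2 with centring, a sex or RNA quality covariate, females or the spike-in block (3.40% to 5.27%), and 0 when the multiclass test was also required (2.24%). For the slope, 6 (7.24% of all genes) became 19 with centring, where 27.9% of all genes passed, 2 with the spike-in covariate (3.12%) and 3 with the spike-in block (4.11%).

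The labels do not say what the replicate numbers mean, and whether they pair the animals was not tested. Same-numbered arrays correlated at -0.09 to 0.33, above 0.1 in 6 of 12 cases, and 6 of 12 correlated best with their own number. Replicates 1 and 4 correlated at 0.14 to 0.33, and replicates 2 and 3 at -0.09 to 0.06. All replicate 1 arrays had higher and all replicate 4 arrays lower spike-in signal, while replicates 2 and 3 were mixed. The part of the spike-in signal in these correlations was not tested. With a replicate block the median SE over all probe sets was 0.485, against 0.510 without it. The unadjusted p was then under 0.05 for 0, 1 and 3 members in L/C, L3/C and L3/L, and for 2.69%, 5.05% and 6.74% of all genes.

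Among values of single genes, 505 kept their sign and 18 did not under alternatives other than leaving out 1 array. With lower spike-in signal these were, in L3/C, ARSA (0.34), GM2A (0.36), SMPD2 (-0.10), UGT8 (-0.16) and the study's probe set of SPTLC2 (-0.040), and ST8SIA1 in L3/L (0.021). In that setting L3 has 1 array. With higher spike-in signal, where L has 1 array, they were CERS5 (0.042) and the study's probe set of NSMAF (-0.17) in L/C, the brightest of NSMAF (0.021) in L3/C and FA2H (0.028) in L3/L. This NSMAF value in L3/C was 0.090 with the spike-in covariate and 0.0075 with the spike-in block, UGT8 in L3/C was -0.026 without normalization and -0.20 with centring, and CERS5 in L/C was 0.017 with the age covariate. The slope of ARSA was 0.22 with centring, and that of GALC was 0.068 with centring and 0.37 with the sex covariate. Leaving out single arrays changed the sign of the study's probe set of NSMAF in L/C (-0.059 to 0.34), UGT8 (-0.20 to 0.43) and the brightest of NSMAF (-0.40 to 0.25) in L3/C, and the slopes of GALC (-0.48 to 0.10) and ARSA (-1.07 to 0.41). The cause was not tested in any of these. Centring moved the median of all genes to -0.18 in L3/C and in L3/L. The number of arrays and the match of human probes to baboon transcripts limit what these signals can show.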
